A study of Mus musculus with 10 samples.

Results

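The BCL2 family was examined in mouse neurons given either SP600125, a compound that blocks the c-Jun N-terminal kinases (JNK), or the solvent DMSO alone. The members were the genes of the survival proteins Bcl2, Bcl2l1, Bcl2l2 and Mcl1, of the BH3-only proteins Bcl2l11, Bbc3, Hrk and Bmf, and of the effectors Bax and Bak1. A member was taken from the probe sets that carry its symbol and no other. By this rule 9 of the 10 members were measured, out of 19938 genes in all, each by 1 probe set. No probe set carried the symbol Bax in the annotation used, so Bax was not analysed here.

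SP600125 was given at 25 µM and DMSO without drug, each in 3 applications 2 hours apart. Each group held 5 arrays of samples called biological replicates, a to e, of terminally differentiated neurons of a 129Sv-C57Bl/6 strain. In both groups replicates a and b came from drug batch 1 and the other three from drug batch 2, the batches being lots of SP600125 in the study's design text. DMSO arrays carry a batch number too, so anything else that differed between the batches cannot be told apart from the lot. Nothing further in the labels says that each replicate was its own culture, and the spread that p-values rest on may therefore be technical. SP600125 competes with ATP and is known to inhibit other kinases besides JNK, and no measure of JNK activity was used here. Total RNA was hybridised to Affymetrix whole-transcript arrays, 1 per sample, and every level below is a log2 expression value. A change is the SP600125 level minus the DMSO level from a limma fit with a term for drug batch, and a gene is called where its Benjamini-Hochberg adjusted p over all genes is under 0.05.

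The BCL2 family decides whether a cell keeps its mitochondria intact or releases cytochrome c and starts caspases. BCL2, BCL-XL (Bcl2l1), BCL-W (Bcl2l2) and MCL1 hold the effectors BAX and BAK in check, and BH3-only proteins bind the survival proteins or the effectors and so favour death. In neurons the BH3-only genes are the members best known to respond to signals: in rat sympathetic and cerebellar neurons deprived of survival factors, JNK and JUN raise Hrk and Bcl2l11, and FOXO factors act on Bcl2l11 and Bbc3.

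The DNA ahead of the gene starts is shown first for the genes with such a history, since their levels are set beside it below. Windows of 250 bases before each RefSeq start (GRCm38.p6) were searched on both strands for 5 motifs, and all 9 measured members matched this table, with 16 windows in all. The motifs were the AP-1 site TGACTCA, the cyclic AMP response element TGACGTCA, its core TGACGT (which every full element contains), the ATF-type site TGATGTAA and the FOXO site GTAAACA. Of all 32851 windows, 4.46%, 1.55%, 6.47%, 0.965% and 3.17% held these motifs, in the same order. No member window held TGACTCA or TGACGTCA, which says only that these letters are not in these windows. The matches, in capitals within 30 bases, were as follows.
Hrk, chr5:118169639-118169668, plus strand: cccgggccggaTGATGTAAccccctccccg
Bcl2l11, chr2:128125800-128125829, plus strand: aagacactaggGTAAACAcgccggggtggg
Bbc3, chr7:16310083-16310112, plus strand: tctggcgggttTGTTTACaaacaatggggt

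The Hrk match lay 107 to 114 bases before the start, the Bcl2l11 match 221 to 227 bases before 1 of its 2 starts, and the Bbc3 match, on the opposite strand, 161 to 167 bases before 1 of its 3 starts. The upstream windows of Bcl2, the member with the largest fall as deposited, and of Bmf, the only member called higher as deposited, are given in full for comparison. Bcl2 held the core TGACGT, in capitals, 102 to 107 bases before its start, and the Bmf window held none of the 5 motifs. A match is a string of letters, not a bound site.
Bcl2, chr1:106714291-106714540, minus strand: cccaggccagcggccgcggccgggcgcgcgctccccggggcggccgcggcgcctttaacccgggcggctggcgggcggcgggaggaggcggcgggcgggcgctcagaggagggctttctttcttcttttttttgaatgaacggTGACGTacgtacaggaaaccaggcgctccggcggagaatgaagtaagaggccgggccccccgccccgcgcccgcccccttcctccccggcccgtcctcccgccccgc
Bmf, chr2:118549687-118549936, minus strand: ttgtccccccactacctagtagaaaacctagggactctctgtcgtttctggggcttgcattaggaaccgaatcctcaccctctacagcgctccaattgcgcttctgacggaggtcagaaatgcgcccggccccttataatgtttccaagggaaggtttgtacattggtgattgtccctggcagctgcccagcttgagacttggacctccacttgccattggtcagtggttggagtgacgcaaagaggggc

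Some facts of the arrays bear on every value. Values varied less from gene to gene on SP600125 arrays, with an SD over genes of 1.68 ± 0.03, than on DMSO arrays, with 1.81 ± 0.03 (mean ± SD, n = 5 each), and bright genes tended to be lower and dim genes higher after SP600125. Genes with a mean level between 7 and 8 had a median change of −0.22, those between 6 and 7 of −0.14 and those between 5 and 6 of 0.08. The cells carried neuron markers, with a mean level over 10 markers from 8.50 to 9.10 on SP600125 arrays and from 8.90 to 9.27 on DMSO arrays. Markers of other cells were present too: 8 astrocyte markers averaged 8.44 to 8.52 on SP600125 arrays and 8.51 to 8.58 on DMSO arrays, and 8 fibroblast and endothelial markers 8.17 to 8.28 and 8.40 to 8.54. The last mean was carried by fibroblast genes, with Col1a1 at 10.9 and Col3a1 at 11.0 after DMSO. The endothelial genes Pecam1, Cdh5 and Kdr stood at 4.82, 5.94 and 5.72 there. Microglia and macrophage markers (8 genes) were dim, at 4.76 to 4.95 on SP600125 arrays and 4.53 to 4.76 on DMSO arrays. In such bulk samples fewer cells of a type and less RNA per cell cannot be told apart.

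All 4 survival genes were lower after SP600125, and 1 of the 4 BH3-only genes, Bmf, was higher. The other 3 BH3-only genes and Bak1 did not pass the test. In all, 5 of the 9 measured members were called, against 46.9% of all genes tested. The 4 falls stand against 29.9% of genes called lower and the 1 rise against 17.0% called higher. The median change was −0.04 over the 9 members, −0.32 over the survival genes and 0.05 over the BH3-only genes, beside −0.03 over all genes tested. The plot of levels by array shows the 9 members.

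**Figure D1:**
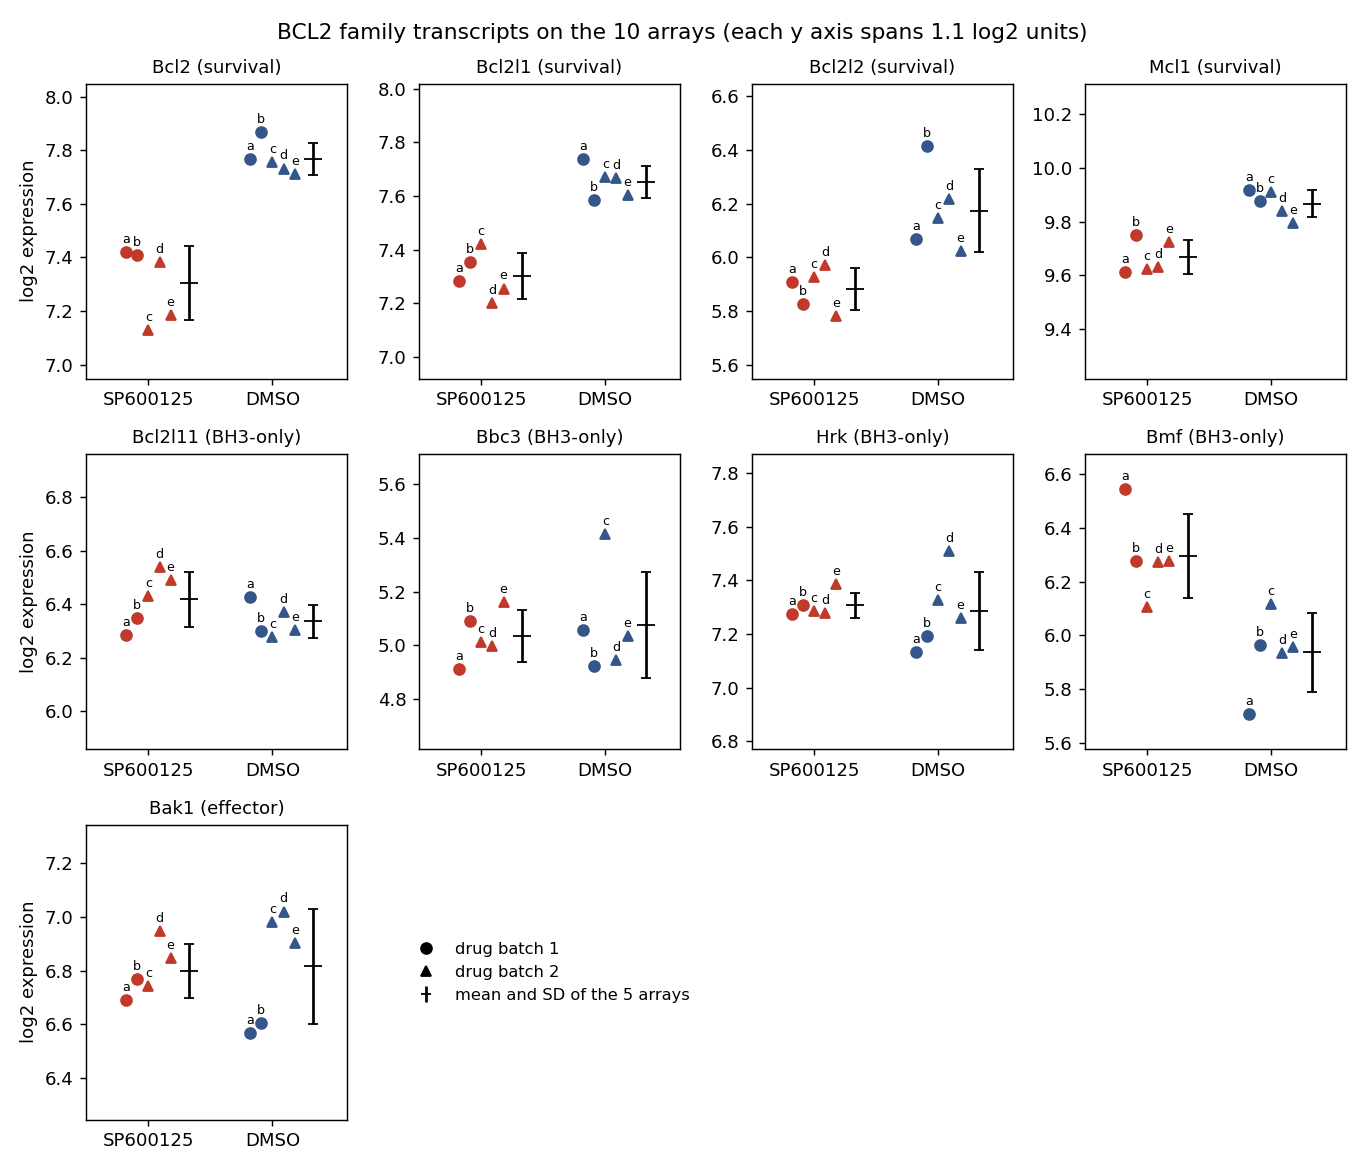
Log2 expression (y axis) of the 9 measured BCL2 family genes on the 5 SP600125 arrays (red) and the 5 DMSO arrays (blue), with replicate letters, circles for drug batch 1, triangles for drug batch 2, and the mean and SD at the side of each group. The groups do not overlap for Bcl2, Bcl2l1, Bcl2l2 and Mcl1, Bmf is higher on 4 of 5 SP600125 arrays than on any DMSO array, and the remaining 4 genes overlap.

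Bcl2, the founding survival gene of the family, had levels of 7.42, 7.41, 7.13, 7.38 and 7.18 on SP600125 arrays a to e, against 7.77, 7.87, 7.76, 7.73 and 7.71 on DMSO arrays a to e. Every SP600125 array lay below every DMSO array. The gene fell by 0.46 in log2 units (SE 0.06, limma adjusted p = 0.000213, n = 5 in each group), to 0.726 times the DMSO level (95% interval 0.661 to 0.798), the largest change among the measured members as deposited. After quantile normalization and cyclic loess the change of Bmf was larger (0.35 and 0.37, against −0.34 and −0.28 for Bcl2), and after cyclic loess so was the fall of Bcl2l2. Within the SP600125 group, arrays c and e were the lowest.

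Bcl2l1, which encodes BCL-XL and is needed by newborn neurons of the mouse brain, read 7.28, 7.35, 7.42, 7.20 and 7.25 on SP600125 arrays, against 7.74, 7.59, 7.67, 7.67 and 7.60 on DMSO arrays. The groups did not overlap. It fell by 0.35 (SE 0.06, limma adjusted p = 0.000825), to 0.785 times the DMSO level (95% interval 0.715 to 0.861). The gene also makes a short transcript whose protein favours death, and 1 probe set cannot tell the forms apart.

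Bcl2l2, whose product BCL-W acts in mature neurons and axons, read 5.91, 5.83, 5.93, 5.97 and 5.78 on SP600125 arrays, against 6.07, 6.42, 6.15, 6.22 and 6.02 on DMSO arrays. Again no array crossed, although the highest SP600125 array (5.97) and the lowest DMSO array (6.02) lay close. The fall was 0.29 (SE 0.08, limma adjusted p = 0.00751), to 0.817 times the DMSO level (95% interval 0.729 to 0.916).

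Mcl1, a survival gene whose mRNA and protein are both short-lived, read 9.61, 9.75, 9.62, 9.63 and 9.72 on SP600125 arrays, against 9.92, 9.88, 9.91, 9.84 and 9.79 on DMSO arrays. The groups did not overlap, with SP600125 array b (9.75) and DMSO array e (9.79) nearest. It had the smallest change of the 4 survival genes, a fall of 0.20 (SE 0.06, limma adjusted p = 0.0127). This was about the median change of genes with a mean level between 9 and 10 (−0.21).

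Non-overlap is common in these data: all 4 survival genes, and none of the other members, had SP600125 arrays wholly on 1 side of DMSO arrays, against 23.1% of all genes in either direction, 16.4% on the lower side and 6.65% on the higher side. Set among genes of like level, 8.98% of the genes between 7 and 8 changed as far down as Bcl2 and 22.8% as far down as Bcl2l1. Of genes between 6 and 7, 22.9% changed as far down as Bcl2l2, and of genes between 9 and 10, 53.4% as far down as Mcl1. Bcl2l2 lay at the lower edge of its class, with means of 5.88 after SP600125 and 6.17 after DMSO, so its share depends on where the class is cut. The survival falls thus ranged from the lower tail of their level class for Bcl2 to its middle for Mcl1.

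Of the BH3-only genes, Bmf changed. Its product senses a loss of attachment and binds dynein light chains at the actin cytoskeleton. Bmf read 6.54, 6.28, 6.10, 6.27 and 6.28 on SP600125 arrays, against 5.71, 5.96, 6.12, 5.94 and 5.96 on DMSO arrays. The overlap came from the c arrays, where SP600125 (6.10) was just under DMSO (6.12), and the a arrays were the farthest apart. The rise was 0.36 (SE 0.09, limma adjusted p = 0.00538), to 1.28 times the DMSO level (95% interval 1.12 to 1.46). Of genes with a mean level between 6 and 7, whose median change was −0.14, 2.11% rose as far. Like Bcl2l2, Bmf lay near the lower edge of this class, with means of 6.30 after SP600125 and 5.94 after DMSO. The class just below, from 5 to 6, stood at a median of 0.08, so the share for Bmf depends on where the class is cut.

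Bcl2l11, which encodes BIM, read 6.28, 6.35, 6.43, 6.54 and 6.49 on SP600125 arrays, against 6.43, 6.30, 6.28, 6.37 and 6.30 on DMSO arrays. SP600125 arrays c, d and e lay above every DMSO array, and a and b did not. The change of 0.08 (SE 0.06, limma adjusted p = 0.295) did not pass, with a 95% interval from −0.05 to 0.22.

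Hrk, which encodes harakiri (DP5), read 7.27, 7.31, 7.29, 7.28 and 7.39 on SP600125 arrays, against 7.13, 7.19, 7.33, 7.51 and 7.26 on DMSO arrays. The SP600125 arrays lay within the range of the DMSO arrays. The change was 0.02 (SE 0.07, limma adjusted p = 0.796), with a 95% interval from −0.12 to 0.16. As a ratio the interval runs between 0.920 and 1.12 times the DMSO level.

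Bbc3, which encodes PUMA, a target of p53 as well as of FOXO factors, was the dimmest member. It read 4.91, 5.09, 5.01, 4.996 and 5.16 on SP600125 arrays, against 5.06, 4.92, 5.41, 4.95 and 5.04 on DMSO arrays. DMSO array c stood above the other arrays of both groups, which otherwise shared a range. The change of −0.04 (SE 0.09, limma adjusted p = 0.712) did not pass, with a 95% interval from −0.23 to 0.14. All its levels lay below the array medians of all probe sets, which were 5.63 to 5.71 on SP600125 arrays and 5.51 to 5.61 on DMSO arrays.

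Bak1, the measured effector, read 6.69, 6.77, 6.74, 6.95 and 6.85 on SP600125 arrays, against 6.57, 6.61, 6.98, 7.02 and 6.90 on DMSO arrays. The SP600125 arrays fell inside the DMSO range, which itself split by drug batch, with a and b low. The change was −0.02 (SE 0.07, limma adjusted p = 0.856), with a 95% interval from −0.16 to 0.13. Bak1 was 0.25 higher in batch 2 than in batch 1 over both treatments (SE 0.07), which did not pass (limma adjusted p = 0.122, where 0.722% of all genes were called), and neither did any other member.

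Because the spread of values differed between the groups, each change was also taken after other scalings of the arrays. Bcl2, Bcl2l1 and Bcl2l2 were lower and Bmf was higher under all of quantile normalization, cyclic loess and centring of each array on its median. Sizes shifted, however. After cyclic loess the fall of Bcl2 was 0.28 (limma adjusted p = 0.00905) and that of Bcl2l1 0.17 (limma adjusted p = 0.0333), while Bcl2l2 (−0.30) and Bmf (0.37) were hardly altered. Mcl1 did not pass after cyclic loess (−0.08, limma adjusted p = 0.308) or quantile normalization (−0.13, limma adjusted p = 0.0729). Hrk passed after cyclic loess, at 0.19 (limma adjusted p = 0.0407), but stood at −0.08 after median centring. The counts of members were thus 2 higher and 3 lower after cyclic loess, beside 9.44% and 17.7% of all genes, and 1 higher and 3 lower after quantile normalization, beside 7.51% and 22.5%. Median centring used the median of all probe sets, which averaged 5.66 on SP600125 arrays and 5.56 on DMSO arrays. It therefore lowered every change by the same amount, for example Bmf from 0.36 to 0.26. It put the median change of all genes at −0.13 and called 1 member higher and 4 lower, beside 7.52% and 43.1% of all genes.

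**Figure D2:**
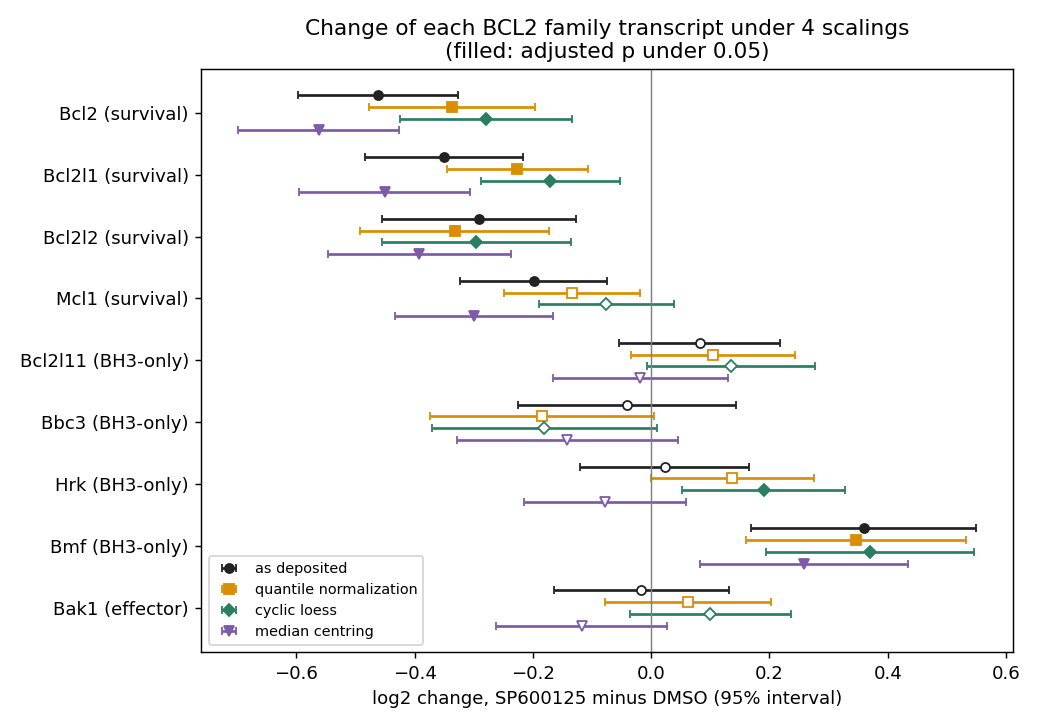
Log2 change, SP600125 minus DMSO (x axis), of the 9 measured members with the values as deposited and after 3 other scalings, as points with 95% intervals, filled where the adjusted p is under 0.05. Bcl2, Bcl2l1 and Bcl2l2 lie left of 0 and Bmf right of 0 under all 4 scalings, while Mcl1 is filled in 2 of them and Hrk only after cyclic loess.

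The drug batches were then compared. In batch 1 and batch 2 the changes were −0.40 and −0.50 for Bcl2, −0.34 and −0.35 for Bcl2l1, −0.37 and −0.24 for Bcl2l2, and −0.22 and −0.19 for Mcl1. All 4 survival genes were thus lower in both batches. Bmf had a change of 0.58 in batch 1 and 0.22 in batch 2, and the difference between them, −0.36 (SE 0.16), did not pass over all genes (limma interaction adjusted p = 0.525, unadjusted 0.0392). Bak1 differed in sign between the batches, with 0.14 in batch 1 and −0.12 in batch 2 (difference −0.26, SE 0.12, limma interaction adjusted p = 0.544), and so did Bcl2l11, with −0.05 and 0.17 (difference 0.22, SE 0.12, limma interaction adjusted p = 0.596). Neither difference passed. In the limma interaction test 0 members were called and 0% of all genes (unadjusted p under 0.05 for 9.29% of genes). Within batch 2 alone, with 3 arrays per group, Bcl2, Bcl2l1 and Bcl2l2 were called lower and no member higher, beside 27.3% and 11.1% of all genes (38.4% in either direction). Mcl1 (limma adjusted p = 0.0536) and Bmf (limma adjusted p = 0.0586) did not pass there. Batch 1 alone, with 2 arrays per group, called 0.00502% of all genes, which is 1 gene, and none of the members.

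**Figure D3:**
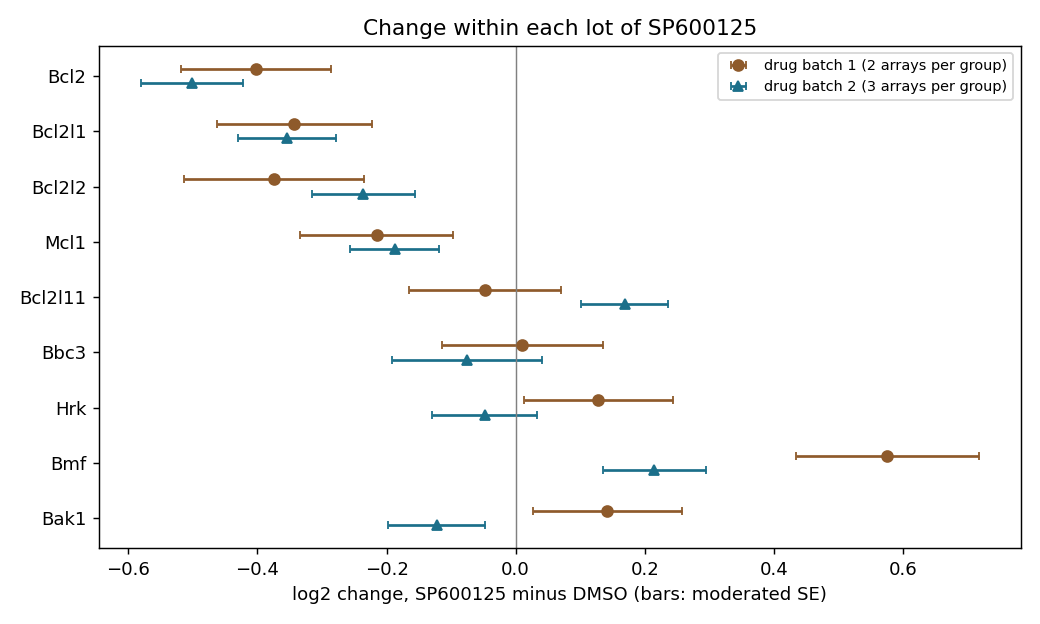
Log2 change, SP600125 minus DMSO (x axis), within drug batch 1 (circles, 2 arrays per group) and drug batch 2 (triangles, 3 arrays per group), with the moderated SE of limma. The 4 survival genes lie left of 0 in both batches, Bmf lies at 0.58 and 0.22, and Bcl2l11, Bbc3, Hrk and Bak1 lie on both sides of 0.

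Neuron markers moved with the treatment, and the survival genes were set beside them. Beside 29.9% of all genes called lower and 17.0% called higher, 9 of the 10 neuron markers fell and none rose, with a median change of −0.56. Their mean level was 8.50, 9.10, 8.62, 8.53 and 8.62 on SP600125 arrays a to e, against 9.24, 8.90, 9.26, 9.27 and 9.26 on DMSO arrays. Array b was the highest of the SP600125 group and array b the lowest of the DMSO group, and the labels do not say that the 2 belong together. The mean level of the 4 survival genes was 7.56, 7.58, 7.53, 7.55 and 7.49 on SP600125 arrays, against 7.87, 7.94, 7.87, 7.86 and 7.78 on DMSO arrays, so the groups did not overlap. Without both b arrays, a choice made after seeing these values, 1 member was called higher and 4 lower, beside 17.1% and 31.6% of all genes. Astrocyte markers had 1 rise and 4 falls of 8 and fibroblast and endothelial markers 4 falls of 8, while 5 of 8 dim microglia and macrophage markers rose. Oligodendrocyte lineage markers had 4 falls of 8, neural progenitor markers 2 falls of 6, with Nes (nestin) at −1.34, and pluripotent cell markers 2 rises of 5. The same shares of all genes stand beside each of these counts. The neuron list was bright and the microglia and pluripotent lists dim, and bright genes tended to be lower and dim genes higher after SP600125. The part of level in the marker counts was not tested. The part of cell composition in the members' changes was not tested.

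**Figure D4:**
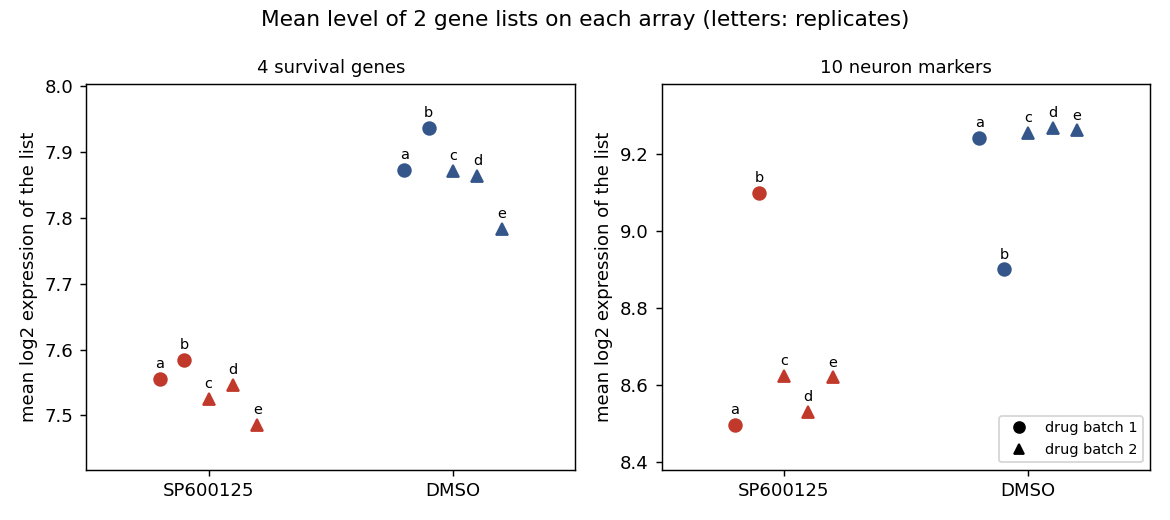
Mean log2 expression (y axis) of the 4 survival genes (left) and of 10 neuron markers (right) on each array, with replicate letters, circles for drug batch 1 and triangles for drug batch 2. The survival genes are lower on all 5 SP600125 arrays than on any DMSO array. The neuron markers are highest on array b (9.10) among SP600125 arrays and lowest on array b (8.90) among DMSO arrays.

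The genes whose pattern over the 10 arrays was most like that of Bcl2, leaving out the lists used here, were Rcc1 (Pearson r = 0.971), Ubxn8 (r = 0.969) and Pabpn1 (r = 0.967). They fell by 0.33, 0.38 and 0.31. The coefficients run over arrays of both treatments and include the difference between them. Pabpn1 did not pass after cyclic loess (−0.15, limma adjusted p = 0.0622).

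Other genes of the same pathway were counted by list, against the 17.0% of all genes called higher and 29.9% called lower. Of 13 further BCL2 family genes measured, 2 rose, 3 fell and 8 did not pass, with a median change of −0.02. Bnip3, a mitophagy receptor that is also induced by low oxygen, fell by 0.64 (SE 0.17, limma adjusted p = 0.0072), with overlapping groups. Bcl2l13, another mitochondrial member, fell by 0.32 (SE 0.07), but not beyond the threshold after cyclic loess (−0.15, limma adjusted p = 0.0581). Bid, the BH3-only protein cut by caspase 8, fell by 0.17 (SE 0.06) and was named after its value was seen, to complete the falls. Bid did not pass with the replicate block (limma adjusted p = 0.0591), with no batch term, or without DMSO c, DMSO e, SP600125 c, SP600125 d or SP600125 e. After median centring, 5 of the 13 genes were lower and none higher, beside 43.1% and 7.52% of all genes. The rises were those of Bcl2l10 (0.29, SE 0.09) and Bcl2l14 (0.24, SE 0.07), both dim at 3.56 and 4.59 after DMSO, and neither passed after quantile normalization, cyclic loess or median centring. Bcl2l10 also missed the threshold without DMSO a (0.22), DMSO e (0.24) or SP600125 a (0.25).

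Downstream of the mitochondria, 12 genes of the apoptosome, the caspases and the released factors were measured, of which 1 rose, 4 fell and 7 did not pass (median −0.12). Aifm1, a mitochondrial flavoprotein that moves to the nucleus in caspase-independent death, fell by 0.52 (SE 0.06, limma adjusted p = 0.000105). Cycs, cytochrome c itself, fell by 0.27 (SE 0.06), Htra2, a protease released with it, by 0.25 (SE 0.06), and Casp8, the initiator of the death receptor route, by 0.23 (SE 0.08). Casp8 did not pass without DMSO a, DMSO d, SP600125 a or SP600125 e, with a change of −0.16 in the last case. The rise was that of Casp6 (0.18, SE 0.07), an executioner caspase active in axons, named after its value was seen. Casp6 did not pass with the replicate block, with no batch term, after median centring (0.083), or in the 7 fits without DMSO a, d or e or SP600125 a, c, d or e. After median centring, which lowered every change by the same amount, 10 of the 12 genes were lower and none higher. Beside them stand 43.1% and 7.52% of all genes. Cycs (−0.11) and Htra2 (−0.15) did not pass after cyclic loess, and the Cycs change was −0.11 over the mean of its probe sets (limma adjusted p = 0.269). Of 8 caspase inhibitors, 2 rose, 2 fell and 4 did not pass (median 0.08). Xiap, which binds active caspases, fell by 0.26 (SE 0.08) and the large ubiquitin ligase Birc6 by 0.25 (SE 0.06), and neither fall passed after cyclic loess or quantile normalization. Naip2 and Naip6 rose by 0.40 (SE 0.07) and 0.39 (SE 0.08) from dim levels of 4.03 and 3.86 after DMSO. The rises were smaller after quantile normalization, at 0.25 for Naip2 and 0.26 for Naip6. Rises in this list numbered 4 without SP600125 b and none among genes with a mean level of at least 5. These near-identical paralogs cannot be separated with certainty.

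Upstream, 14 transcription factors that act on the family were measured, of which 2 rose, 4 fell and 8 did not pass (median −0.04). Jun, the JNK substrate that acts on Hrk and Bcl2l11, fell by 0.56 (SE 0.06), Jund by 0.55 (SE 0.09) and Creb1, which acts on Bcl2, by 0.27 (SE 0.05). Trp73, a relative of p53, rose by 0.35 (SE 0.10). Named after their values were seen, to complete the counts, Atf2, which pairs with JUN, fell by 0.21 (SE 0.06), and Foxo4, a FOXO factor, rose by 0.22 (SE 0.06). Atf2 did not pass after cyclic loess (−0.05), after quantile normalization (−0.11), or without DMSO a, DMSO e or SP600125 a, and Foxo4 did not after median centring (0.12). The list had 5 rises after cyclic loess, 4 after quantile normalization and 1 after median centring, beside 9.44%, 7.51% and 7.52% of all genes. After median centring it had 7 falls, beside 43.1% of all genes. After cyclic loess Jund stood at −0.36 and Creb1 did not pass (−0.08, limma adjusted p = 0.324), nor did Creb1 after quantile normalization (−0.14). As deposited, Jun was lower, and Hrk (0.02), whose ATF-type match is printed above, and Bcl2l11 (0.08) did not pass. Hrk passed after cyclic loess (0.19, limma adjusted p = 0.0407). The part of JUN in the levels of these genes was not tested. All 3 genes of JNK kinases were lower. Mapk10, the neuronal form, fell by 0.56 (SE 0.09), Mapk9 fell by 0.45 (SE 0.09) and Mapk8 fell by 0.34 (SE 0.08), but Mapk8 did not pass after cyclic loess (−0.15). Mapk9 stood at −0.27 after cyclic loess, and Mapk10 at −0.36 over the mean of its probe sets.

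Of the protein partners and turnover factors, 15 of 18 genes were lower and none higher, with a median change of −0.28. The falls numbered 12 after quantile normalization and 10 after cyclic loess, beside 22.5% and 17.7% of all genes. Dynll2, the dynein light chain that binds BMF, fell by 0.62 (SE 0.08, limma adjusted p = 0.000157). The 14-3-3 genes Ywhag and Ywhah, whose products hold BAD in the cytosol, fell by 0.56 (SE 0.10) and 0.54 (SE 0.07). Fbxw7, part of a ubiquitin ligase for MCL1, fell by 0.41 (SE 0.06), or by 0.17 over the mean of its probe sets. Many of these genes are bright, with list means between 9.14 and 9.32 on SP600125 arrays and between 9.39 and 9.53 on DMSO arrays. Of 8 genes of the death receptor route, none rose, 2 fell and 6 did not pass (median −0.06). The list holds the ligand gene Fasl and the adaptor genes Fadd and Tradd beside the receptors. After median centring 4 of its genes were lower, beside 43.1% of all genes. Tnfrsf1a, the main receptor of tumour necrosis factor, fell by 0.28 (SE 0.06) and Tnfrsf21, death receptor 6, by 0.17 (SE 0.06). After cyclic loess Tnfrsf1a stood at −0.19. Tnfrsf21 did not pass after cyclic loess (−0.02) or quantile normalization (−0.09), with the replicate block (limma adjusted p = 0.0516), or without any of DMSO b, DMSO c, DMSO d, SP600125 a, SP600125 d and SP600125 e in turn.

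**Figure D5:**
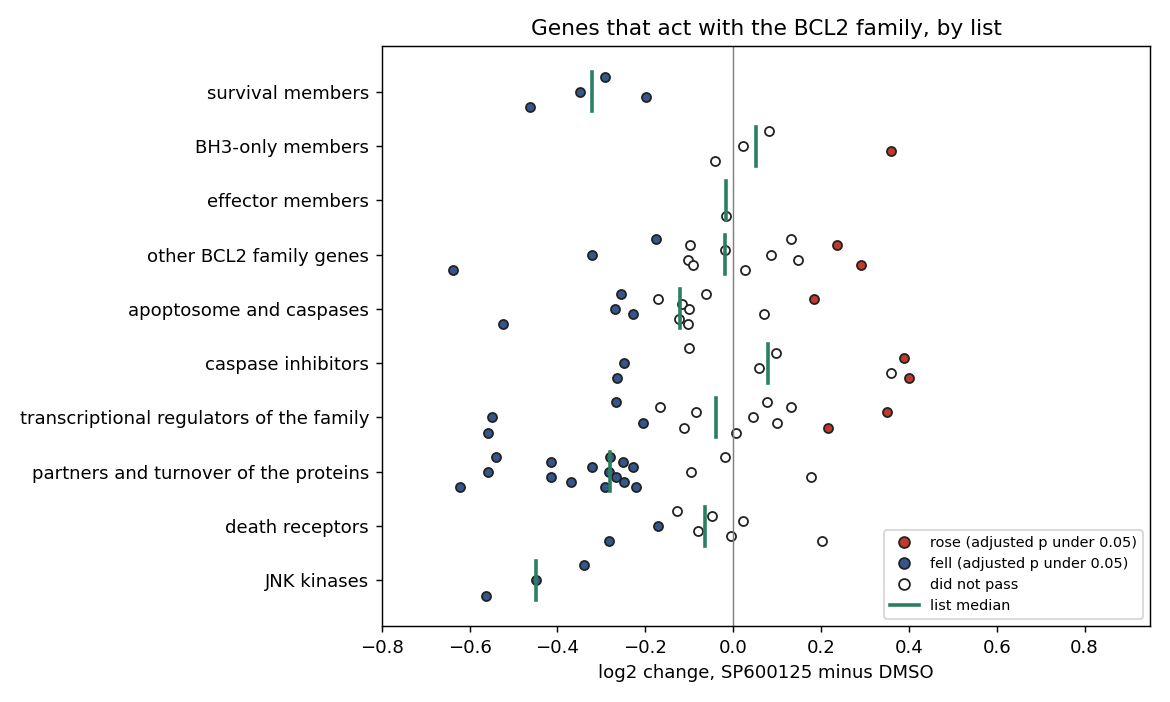
Log2 change, SP600125 minus DMSO (x axis), of every measured gene in the 3 groups of members and 7 lists of genes that act with them, red where the gene rose, blue where it fell, open where it did not pass, with the list median as a green bar. The survival genes (median −0.32) and the protein partners (median −0.28) lie mostly left of 0, and the BH3-only genes (median 0.05) around it.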

How the data were processed

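The deposited values are log2 expression values, 1 per probe set and array in a table of 35556 probe sets, for which the submitters' processing notes name oligo 1.14.0. How background, normalization and summarization were handled is not given in the sources used here, and the log2 scale was read from the values. They were used as deposited. Genes were named from the platform annotation, where 21789 probe sets carried 1 symbol, 1621 several and 12146 none, and of several probe sets for a gene the brightest on average was kept (19938 genes). limma 3.58.1 in R 4.3.3 (lmFit, eBayes, two-sided) was fitted to all genes with treatment and drug batch as terms and 7 residual degrees of freedom.

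The members and lists were chosen with earlier results of these data known. Members were always named, and from each other list the up to 4 largest called changes. A change of Bax relative to Bcl2 was planned and could not be computed. Letters were not used as pairs in the main fit, because the labels do not say that a letter marks a shared culture. Deviations of same-lettered arrays from their group means had correlations of −0.21 to 0.10 over genes. Deviations from the means of group and batch had correlations from −0.34 (a and b) to 0.04 (d). With 2 arrays per group in batch 1, the values of a and b are equal by construction and count as 1. On data simulated for this comparison over 19938 genes, with 50 genes changed at each size and so far fewer than the 9351 called here, the fit recovered 0% of changes of 0.2, 60% of 0.35, 88% of 0.5 and 100% of 1. With so few changed genes the adjusted threshold is stricter than in the real data, where changes near 0.2 were called. The number of arrays limits the precision.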

Additional observations from a re-analysis of the deposited data

Results flagged for a closer look

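Of the 18 sets of 5 arrays examined (9 members in each treatment), 1 held an array far from the others. Bbc3 stood at 5.41 on DMSO array c, while the other DMSO arrays lay between 4.92 and 5.06. Chance sets apart about 1 in 20 such groups. Without this array the Bbc3 change was 0.04, against −0.04 with it, and did not pass in either case.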

How the results depend on the processing

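Bcl2, Bcl2l1, Bcl2l2 and Mcl1 were called lower and Bmf higher in all 10 fits that left out 1 array, with no batch term, with the mean of all probe sets, among genes with a mean level of at least 5 and with the replicate block. The block left 5 members called, beside 8252 of all 19938 genes. With it Bcl2 stood at −0.46 (limma adjusted p = 0.00164), and no member's call changed. Calls were common among all genes in the other fits just named too. Whether steady calls are particular to the members was not tested. Changes without 1 array ran from −0.50 to −0.43 for Bcl2 and from 0.28 to 0.41 for Bmf. With both b arrays left out, a choice made after seeing the data, 1 member was higher and 4 were lower, beside 17.1% and 31.6% of all genes. Members called higher numbered 2 after cyclic loess, beside 9.44% of all genes. All genes called numbered 5991 after quantile normalization and 5419 after cyclic loess, against 9351, and the share of them called higher was 25.0%, 34.7% and, after median centring, 14.8%, against 36.2%. Median centring lowered every change by the same amount, since the medians of all probe sets were higher on SP600125 arrays. For quantile normalization and cyclic loess the cause was not tested. Members that never passed as deposited changed sign in some settings. Bak1 stood at 0.062 after quantile normalization, 0.10 after cyclic loess, 0.14 in batch 1 alone, and between −0.053 and 0.026 without 1 array. Bbc3 stood at 0.010 in batch 1 alone and between −0.087 and 0.041 without 1 array. Bcl2l11 stood at −0.048 in batch 1 alone and −0.018 after median centring. Hrk stood at −0.078 after median centring, −0.048 in batch 2 alone, −0.00034 without both b arrays and between −0.0031 and 0.071 without 1 array. The planned change of Bax relative to Bcl2 was not run.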
